A study of Mus musculus with 18 samples.

Results

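The genes described here are the Fos and Jun subunits of the transcription factor AP-1 that the array measured under their own names, namely Fos, Fosb, Fosl2, Jun, Junb and Jund. Every probe set annotated to only 1 of these 6 symbols was taken, whatever its values, which gave 7 of the 22690 probe sets on the array. Jun had 2 probe sets, called A and B here, and the other members had 1 each. Their NCBI gene identifiers are 14281 (Fos), 14282 (Fosb), 14284 (Fosl2), 16476 (Jun), 16477 (Junb) and 16478 (Jund). The study injected littermate mice, 10 to 20 weeks old and housed singly, with 25 mg/kg cocaine or with saline into the peritoneum, and took the striatum with the nucleus accumbens after 1 h. All animals are recorded with the same number of days of handling, and the effect of handling on the saline levels was not tested. There were 3 control and 3 mutant mice given saline and 6 control and 6 mutant mice given cocaine, with 1 array per animal. The mutants are described only as mutant animals in a study on loss of the kinase CaMKIV, encoded by Camk4, and the labels used here give neither the allele nor the cells that lack the kinase. The titles number 12 animals in Arabic numerals (replicates 1 to 3 of each group) and 6 in Roman numerals (replicates 4 to 6 of both cocaine groups), and all saline animals are in the Arabic series.

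AP-1 is a dimer of leucine zipper proteins in which a Fos protein pairs with a Jun protein, while Jun proteins can also pair with each other. Fos, Fosb, Jun and Junb are immediate early genes, transcribed within minutes of a stimulus from factors already present in the cell, among them CREB and the serum response factor. In the striatum, cocaine raises dopamine, and the induction of Fos and Fosb in medium spiny neurons is a widely used readout of that signal. CaMKIV is a nuclear kinase that phosphorylates CREB.

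The stretches just upstream of the transcription start that the promoter table uses are shown for the members that responded most and for Jun, because motifs bound by CREB and related factors differ among them. All 6 members have a promoter in the RefSeq table of build GRCm38.p6, and the 250 bases before the start were searched on both strands for the cAMP response element TGACGTCA, its core TGACG, the AP-1 site TGANTCA, the CArG box and the TATA box TATAAA. The core TGACG, which is contained in the full element, was found in Fos, Fosb and Junb and occurred in 17.8% of all 32851 promoters searched. TATAAA was found in Fos alone among the members and in 12.4% of all promoters. The full TGACGTCA (1.55% of promoters), TGANTCA (6.75%) and the CArG box (1.47%) were found in none of the 6 windows, which says only that these letters are not there. The variant TGACATCA was added after the sequences had been read; it was found in Jun alone among the members and in 2.93% of all promoters. Fos is shown on the + strand (chr12:85473640-85473889), Junb on the - strand (chr8:84978749-84978998) and Jun on the - strand (chr4:95052223-95052472), each ending at the base before the start. Of Fosb only 30 bases are shown (- strand, chr7:19310088-19310117), because 73 bases of its window, these 30 among them, lie inside the annotated gene: they precede the start that the table uses, but not the outermost one annotated. Capitals mark TGACG and TATAAA in Fos, TGACG in Junb and Fosb, and TGACATCA in Jun.
Fos: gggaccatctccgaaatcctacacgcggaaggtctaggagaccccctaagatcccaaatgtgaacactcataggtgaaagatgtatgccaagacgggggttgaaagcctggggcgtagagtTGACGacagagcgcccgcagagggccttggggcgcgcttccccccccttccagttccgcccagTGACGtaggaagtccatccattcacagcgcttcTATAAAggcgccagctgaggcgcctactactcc
Junb: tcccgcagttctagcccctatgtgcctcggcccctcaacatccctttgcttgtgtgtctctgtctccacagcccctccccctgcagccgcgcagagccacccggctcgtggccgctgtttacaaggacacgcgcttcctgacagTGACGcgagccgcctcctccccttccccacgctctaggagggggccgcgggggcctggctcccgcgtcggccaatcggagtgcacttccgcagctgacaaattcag
Jun: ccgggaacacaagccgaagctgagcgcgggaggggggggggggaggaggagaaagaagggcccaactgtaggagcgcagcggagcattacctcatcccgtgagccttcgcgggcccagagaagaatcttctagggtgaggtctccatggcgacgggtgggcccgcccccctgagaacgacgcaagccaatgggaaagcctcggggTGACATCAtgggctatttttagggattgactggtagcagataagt
Fosb: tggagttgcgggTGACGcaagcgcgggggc
The TGACG copies lay 129 to 125 and 66 to 62 bases before the start in Fos, 106 to 102 in Junb and 60 to 56 in Fosb. The windows of Fosl2, Jun and Jund held no TGACG. These matches are a description of the sequence, and binding was not measured.

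Values are log2 expression levels that the authors computed with GCRMA, and 12674 probe sets with a level above 4 in at least 3 arrays were tested with limma, which left 6 of the 7 member probe sets (5 of 6 genes). Fosl2 was above 4 in 2 arrays only and was not tested. Fosb had 0 saline arrays above 4 and passed this filter through its cocaine arrays alone. Levels of markers of medium spiny neurons, the main neurons of the striatum, averaged 12.36 to 12.70 across the 18 arrays, and the cortical neuron marker Tbr1 was at 2.83 to 5.11. The brighter Camk4 probe set was at 7.65 ± 0.06 (SD, n = 3) in control and 7.30 ± 0.16 (SD, n = 3) in mutant saline arrays. It was at 7.65 ± 0.10 (SD, n = 6) in control and 7.27 ± 0.27 (SD, n = 6) in mutant cocaine arrays. The mutant minus control difference after cocaine was -0.39 ± 0.10 (SE) and did not pass (limma adjusted p = 0.427). For the dimmer Camk4 probe set tested that difference was -0.75 ± 0.31 (SE) and did not pass either (limma adjusted p = 0.427). Whether these probe sets lie in the deleted part is not given. Mutant cocaine replicate 5 stood apart: its actin 3' probe set exceeded the 5' one by 3.59 log2 units, against 1.57 to 1.91 in the other Roman arrays, 2.14 to 2.55 in the Arabic cocaine arrays and 1.89 to 2.41 in the saline arrays. The description line of each sample named another group than its title in all 18 samples, so that the groups rest on the titles.

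Fos, Fosb and Junb rose 1 h after cocaine, Jun was higher without passing the threshold, and Jund differed little. In the fit over all arrays, averaged over genotypes, 3 of the 6 member probe sets tested passed an adjusted p of 0.05, all higher after cocaine, against 0.221% of all probe sets tested (28 of 12674). Fosb is among these 3, and it entered the tested set through its cocaine arrays alone. Because every saline array is Arabic-numbered and the numbering series was a term of the model, these averaged differences rest on the Arabic arrays, and the Roman arrays enter through the spread. In whole tissue, more RNA per cell and more cells with the RNA cannot be told apart.

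Fos encodes the founding member of the Fos family. After saline its level was 6.52, 5.00 and 6.06 in the control mice and 4.65, 4.81 and 4.79 in the mutants. After cocaine the lowest, median and highest levels were 9.53, 10.61 and 11.74 in controls and 7.39, 10.55 and 11.26 in mutants. All 12 cocaine arrays lay above all 6 saline arrays, which held for 0.410% of the probe sets tested, and mutant cocaine replicate 1 was the lowest of the cocaine arrays at 7.39. The averaged difference was 4.55 ± 0.48 (SE) on the log2 scale, or 23.4-fold, with the smallest p of all probe sets (limma adjusted p = 0.000553). Taken separately, Fos rose by 4.28 ± 0.63 (SE) in control mice (limma adjusted p = 0.0113) and by 4.82 ± 0.63 (SE) in mutants (limma adjusted p = 0.013).

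Fosb encodes full-length FosB and, by splicing, the truncated ΔFosB that accumulates with repeated drug exposure, and the files do not say which form the probe set measured. It was dim after saline, at 3.81, 3.60 and 3.99 in controls and 3.48, 3.77 and 3.49 in mutants. After cocaine its lowest, median and highest levels were 6.15, 6.79 and 8.25 in controls and 4.88, 6.67 and 8.08 in mutants. The cocaine arrays all lay above the saline arrays, and mutant cocaine replicate 1 was again the lowest of them. That separation held for 0.410% of the probe sets tested, a set that Fosb entered through its cocaine arrays alone. The share without the filter was not computed. Fosb rose by 3.01 ± 0.45 (SE), or 8.04-fold (limma adjusted p = 0.0052). Because Fosb entered the tested set through its cocaine arrays, it was also fitted with no filter, where it passed (limma adjusted p = 0.0143). The fold is set against dim saline levels. The difference was 3.08 ± 0.60 (SE) in controls (limma adjusted p = 0.0751) and 2.93 ± 0.60 (SE) in mutants (limma adjusted p = 0.16), neither of which passed. With no filter the limma adjusted p-values were 0.174 in controls and 0.275 in mutants. With the filter they were 0.00922 and 0.011 without mutant cocaine replicate 1, and 0.0178 and 0.0481 without mutant cocaine replicate 5. Those fits kept the filter that Fosb passed through its cocaine arrays.

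Fosl2 encodes Fra-2, a Fos protein without the strong activation domain of Fos and FosB. Its level was 2.52, 2.45 and 2.31 in control and 2.52, 2.49 and 2.42 in mutant saline arrays. After cocaine the lowest, median and highest levels were 2.53, 2.76 and 5.05 in controls and 2.45, 2.99 and 5.69 in mutants. The high values came from 1 array in each group, control cocaine replicate 2 and mutant cocaine replicate 5, the array with the highest actin 3' to 5' difference; the part of that difference in its Fosl2 level was not tested. With no filter on dim probe sets, the averaged cocaine difference of Fosl2 was 0.58 ± 0.50 (SE) and did not pass (limma adjusted p = 0.866).

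**Figure D1:**
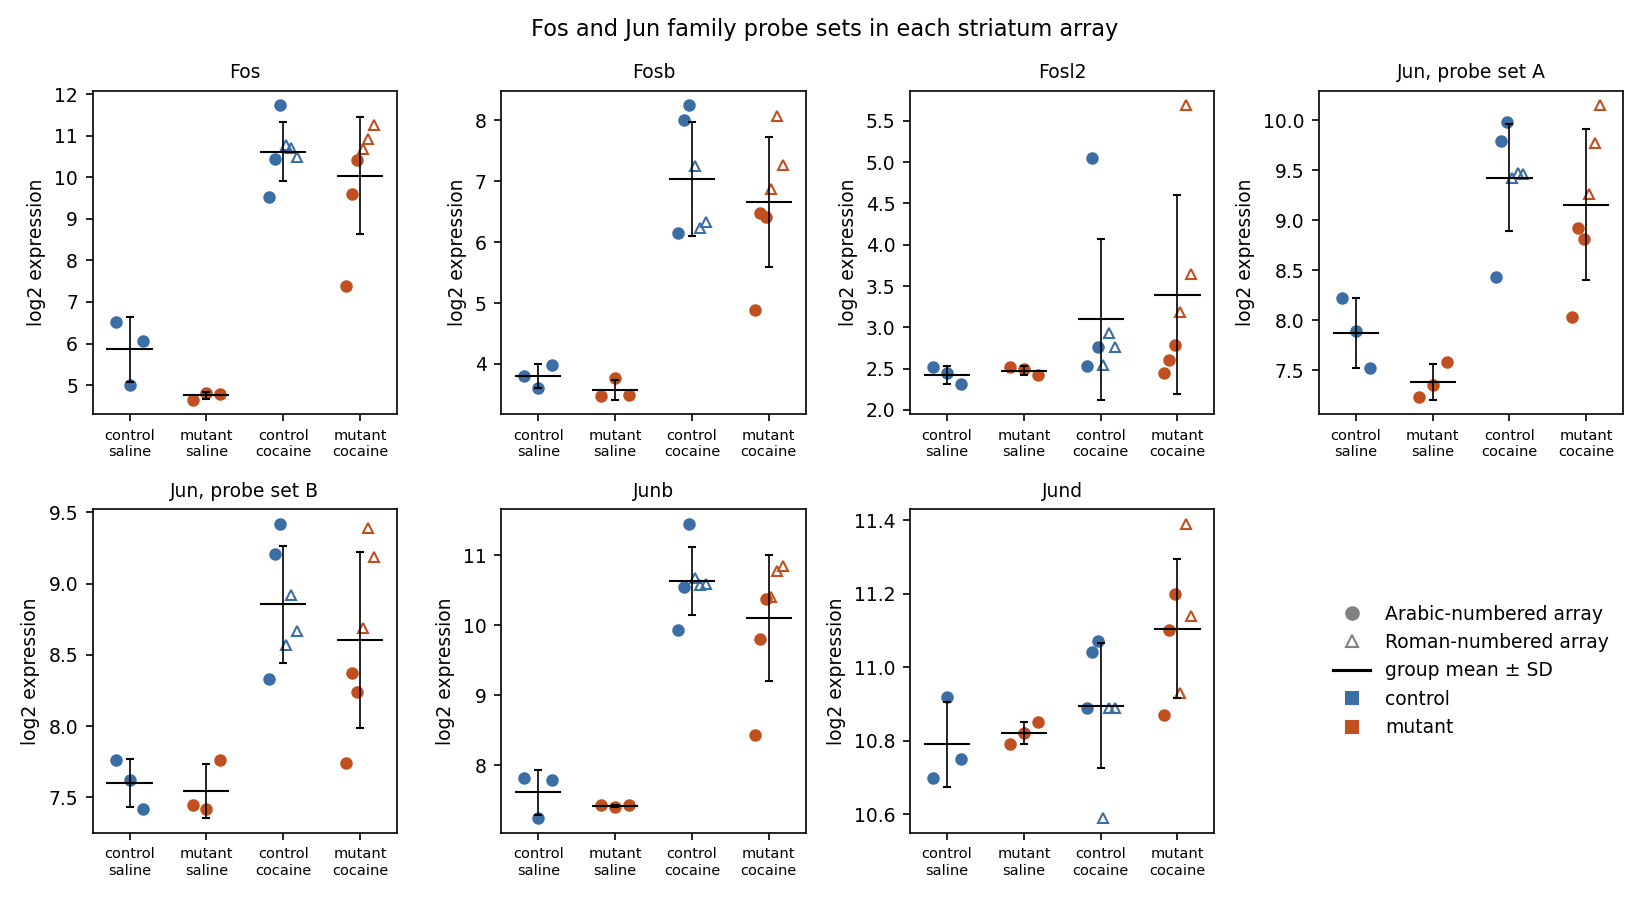
Log2 GCRMA level (vertical axis) of each of the 7 probe sets in every array, with 1 point per animal, a horizontal line at the group mean and an error bar of 1 SD; groups are control and mutant mice after saline or cocaine, and Arabic and Roman arrays have separate symbols. The cocaine points of Fos, Fosb and Junb lie above all saline points, those of Jund overlap with saline, and Fosl2 is near the floor except in 2 arrays.

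Junb encodes JunB, a Jun protein that activates more weakly than Jun and can restrain it. Its saline levels were 7.82, 7.25 and 7.79 in controls and 7.44, 7.41 and 7.43 in mutants. After cocaine the lowest, median and highest levels were 9.94, 10.58 and 11.45 in controls and 8.44, 10.39 and 10.84 in mutants. All 12 cocaine arrays lay above all 6 saline arrays, and the lowest of them was again mutant cocaine replicate 1. Junb rose by 2.57 ± 0.31 (SE), or 5.94-fold (limma adjusted p = 0.000581). It rose by 2.73 ± 0.40 (SE) in controls (limma adjusted p = 0.0113) and by 2.41 ± 0.40 (SE) in mutants (limma adjusted p = 0.0418).

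Jun encodes c-Jun, the Jun protein with the strongest activation domain. With probe set A its saline levels were 8.22, 7.89 and 7.52 in controls and 7.23, 7.35 and 7.58 in mutants, and its lowest, median and highest cocaine levels were 8.43, 9.46 and 9.98 in controls and 8.03, 9.09 and 10.15 in mutants. With probe set B the saline levels were 7.76, 7.62 and 7.42 in controls and 7.45, 7.42 and 7.76 in mutants, and the cocaine levels were 8.33, 8.80 and 9.42 in controls and 7.74, 8.53 and 9.39 in mutants. With each probe set 11 of 12 cocaine arrays lay above all saline arrays, and the exception was mutant cocaine replicate 1. The averaged difference was 1.36 ± 0.27 (SE) with probe set A, just outside the threshold (limma adjusted p = 0.0532), and 0.98 ± 0.23 (SE) with probe set B (limma adjusted p = 0.151). Across the 18 arrays the 2 probe sets had r = 0.97. Fitted on the 12 Arabic arrays alone, where the spread is estimated without the Roman arrays, the same differences passed with both probe sets (limma adjusted p = 0.0155 and 0.0138), against 3.39% of all probe sets called in that fit. Without mutant cocaine replicate 5 they passed as well (limma adjusted p = 0.0151 and 0.0197), with 2.86% of all probe sets called. Without mutant cocaine replicate 1 they passed too (limma adjusted p = 0.00917 and 0.0362), with 0.339% of all probe sets called. Probe set A alone passed also without mutant cocaine replicate 6 and without control cocaine replicate 1.

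Jund encodes JunD, a Jun protein that most cells make at a steady level. Its saline levels were 10.70, 10.92 and 10.75 in controls and 10.79, 10.82 and 10.85 in mutants. After cocaine the lowest, median and highest levels were 10.59, 10.89 and 11.07 in controls and 10.87, 11.12 and 11.39 in mutants. The groups overlapped, with 7 of 12 cocaine arrays above all saline arrays. The averaged difference was 0.22 ± 0.09 (SE) and did not pass (limma adjusted p = 0.859).

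In control mice and in mutants alike, Fos and Junb were the members that passed, 2 of 6 probe sets in each. All probe sets were called at a rate of 0.110% in controls and 0.0473% in mutants. The 2 comparisons share the series term and the spread of 1 fit, so each also depends on the other genotype's cocaine arrays. Without mutant cocaine replicate 1, for example, the control difference of Fos was 4.52, against 4.28 with all arrays. Each comparison rests on 3 saline arrays. Averaged over genotypes, Fos, Fosb and Junb passed whichever of the 18 arrays was left out. In controls both calls were lost without control cocaine replicate 2, control saline replicate 2 or control saline replicate 3, each of which left 0 members past the threshold; the adjusted p of Fos and Junb then ran from 0.0559 to 0.0896. In mutants Fos was lost without replicate 2 or replicate 3 of either mutant group, and Junb passed in only 3 of 18 fits, those that left out replicate 1 or 5 of the mutants or replicate 3 of the controls given cocaine; its adjusted p reached 0.262 in the others.

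**Figure D2:**
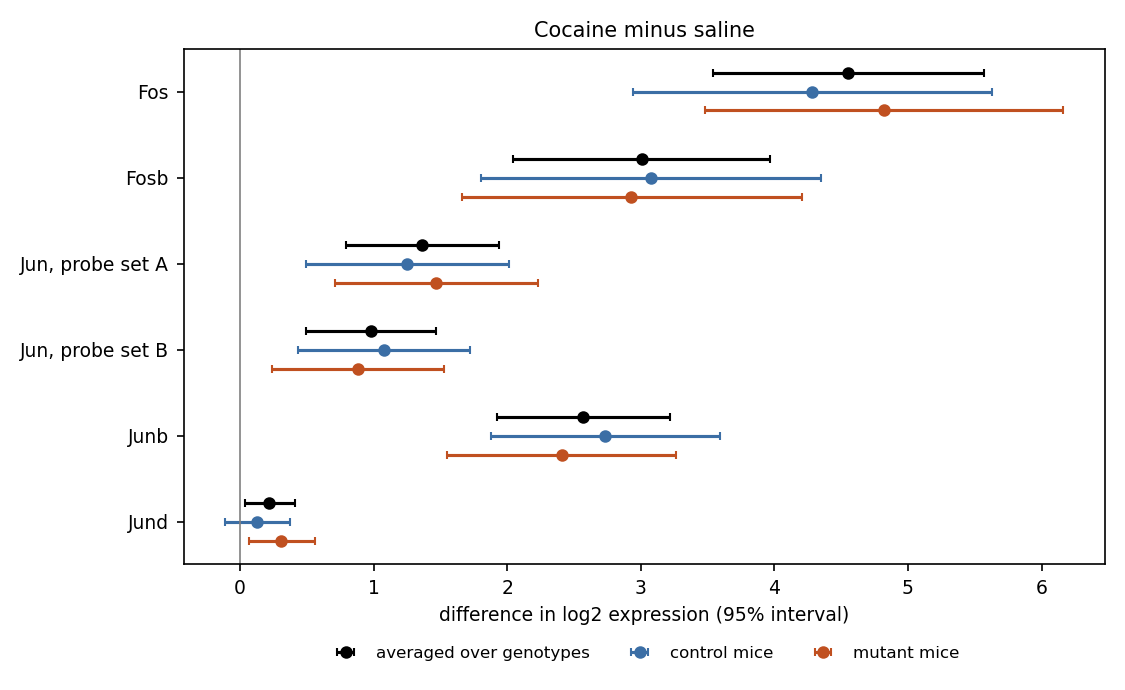
Cocaine minus saline difference on the log2 scale (horizontal axis) for the 6 probe sets tested, with the estimate of the limma fit as a point and its 95% confidence interval as a bar, averaged over genotypes and in each genotype. The averaged estimates run from 0.22 for Jund to 4.55 for Fos, and in each probe set the intervals of the genotypes overlap.

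The response to cocaine was then compared between genotypes, which asks whether loss of CaMKIV changes it. The interaction, the mutant minus the control response, was 0.54 ± 0.83 (SE) for Fos with a 95% interval of -1.22 to 2.30, -0.14 ± 0.79 (SE) for Fosb with an interval of -1.81 to 1.52, and -0.33 ± 0.53 (SE) for Junb with an interval of -1.45 to 0.80. For Jun it was 0.22 ± 0.47 (SE) with probe set A and -0.19 ± 0.40 (SE) with probe set B, and for Jund 0.18 ± 0.15 (SE). None of the 6 member probe sets passed, at limma adjusted p-values of 0.992 or higher, and 0 of 6 had an unadjusted p under 0.05, against 2.68% of all probe sets. The intervals still hold differences of more than 1 log2 unit in either direction for Fos and Fosb. Fitted on the 12 Arabic arrays alone, which hold all the saline arrays, the interaction was -0.32 ± 0.98 (SE) for Fos, -1.32 ± 0.71 (SE) for Fosb, -0.91 ± 0.61 (SE) for Junb, -0.32 ± 0.50 (SE) and -0.81 ± 0.35 (SE) for Jun probe sets A and B, and 0.03 ± 0.12 (SE) for Jund. There too 0 of 6 passed (limma adjusted p of 0.965 or higher), and Jun probe set B alone had an unadjusted p under 0.05, against 4.54% of all probe sets in that fit.

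After saline, all 3 mutant arrays had less Fos than all 3 control arrays, a separation in this direction that 4.56% of all probe sets showed. The difference was -1.11 ± 0.68 (SE), with a 95% interval of -2.55 to 0.33, and did not pass (limma adjusted p = 1). Fosb differed by -0.22 ± 0.64 (SE), Junb by -0.20 ± 0.43 (SE), Jun by -0.49 ± 0.38 (SE) and -0.06 ± 0.33 (SE), and Jund by 0.03 ± 0.12 (SE). None of the 6 passed by limma or by an ordinary linear model, and 0 of 6 had an unadjusted p under 0.05, against 2.76% of all probe sets.

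After cocaine, the mutants had means below the controls for Fos, Fosb, Jun and Junb and a mean above them for Jund, and none of these differences passed. Fos was at 10.62 ± 0.71 (SD, n = 6) in controls and 10.05 ± 1.42 (SD, n = 6) in mutants, Fosb at 7.03 ± 0.94 and 6.67 ± 1.06, and Junb at 10.63 ± 0.48 and 10.11 ± 0.90. The mutant minus control difference was -0.57 ± 0.48 (SE) for Fos, -0.37 ± 0.45 (SE) for Fosb and -0.52 ± 0.31 (SE) for Junb, with limma adjusted p-values of 0.575, 0.709 and 0.467. Leaving out mutant cocaine replicate 1 took it to -0.09 for Fos, -0.01 for Fosb and -0.21 for Junb. Jund differed by 0.21 ± 0.09 (SE) and was the only one of the 6 with an unadjusted p under 0.05 (limma adjusted p = 0.427), against 11.6% of all probe sets. From low to high, the group means of Fos, Fosb, Jun and Junb ran from mutant saline through control saline and mutant cocaine to control cocaine. In that order the 2 saline groups, and the 2 cocaine groups, were neighbours whose difference did not pass for any member tested.

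The 2 numbering series gave genotype differences of opposite sign for Fos, Fosb and Jun, lower in mutants in the Arabic and higher in the Roman series, while that of Junb was negative in the Arabic series and near 0 in the Roman one. Among the Arabic cocaine arrays (n = 3 per genotype) Fos averaged 10.57 ± 1.11 (SD) in controls and 9.14 ± 1.57 (SD) in mutants, Fosb 7.47 ± 1.14 and 5.93 ± 0.90, and Junb 10.64 ± 0.76 and 9.54 ± 1.00. Among the Roman arrays (n = 3 per genotype) Fos averaged 10.66 ± 0.15 (SD) and 10.95 ± 0.29 (SD), Fosb 6.60 ± 0.56 and 7.40 ± 0.62, and Junb 10.61 ± 0.06 and 10.67 ± 0.24. The Fos and Junb means of controls were nearly equal in the 2 series, while those of mutants were higher in the Roman series.

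In the Arabic series the mutant minus control difference was -1.43 ± 0.63 (SE) for Fos, -1.54 ± 0.51 (SE) for Fosb, -1.10 ± 0.39 (SE) for Junb, -0.81 ± 0.34 (SE) and -0.87 ± 0.25 (SE) for Jun, and 0.06 ± 0.11 (SE) for Jund. Of the 6 probe sets, 5 had an unadjusted p under 0.05, all lower in mutants, against 3.66% of all probe sets, and 0 passed the adjustment (limma adjusted p = 1 for each). These members rise and fall together across arrays, as shown further on, so the 5 are not independent. The spread in that fit was pooled over both series. Fitted on the Arabic arrays alone, the difference of Fos had an SE of 0.69 and was no longer under 0.05 (limma unadjusted p = 0.0612). Fosb, Junb and both probe sets of Jun stayed under 0.05, against 7.12% of all probe sets in that fit. None passed the adjustment there (limma adjusted p of 0.626 or higher). Without mutant cocaine replicate 1 the Arabic differences were -0.56 for Fos, -1.02 for Fosb, -0.55 for Junb, and -0.53 and -0.68 for Jun. Without control cocaine replicate 3, the array with the highest Fos, they were -0.85 for Fos, -1.15 for Fosb, -0.70 for Junb, and -0.52 and -0.66 for Jun. In the other direction, they were -1.95 for Fos, -2.20 for Fosb, -1.45 for Junb, and -1.30 and -1.20 for Jun without control cocaine replicate 1, and Fos was at -2.08 and Junb at -1.52 without mutant cocaine replicate 3. The sign for Fos, Fosb, Jun and Junb was negative whichever array was left out, and the size depended on the array.

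In the Roman series the difference was 0.29 ± 0.63 (SE) for Fos, 0.80 ± 0.51 (SE) for Fosb, 0.06 ± 0.39 (SE) for Junb, 0.28 ± 0.34 (SE) and 0.37 ± 0.25 (SE) for Jun, and 0.36 ± 0.11 (SE) for Jund. Here 1 of 6, Jund, had an unadjusted p under 0.05 (limma adjusted p = 0.219), against 18.3% of all probe sets. The spread was again pooled over both series. Fitted on the Roman arrays alone, the SE was 0.16 for Fos, 0.40 for Fosb, 0.13 for Junb, and 0.22 and 0.20 for Jun. These differences did not pass there either (limma adjusted p of 0.675 or higher). Without mutant cocaine replicate 5 the Roman difference was 0.47 for Fosb, 0.22 for Jun probe set B, 0.01 for Junb and 0.25 for Jund. Without mutant cocaine replicate 6 it was 0.14 for Fos, 0.07 for Jun probe set A and -0.03 for Junb, so that the sign of Junb turned. Leaving out replicate 4 of the mutants instead gave 0.43 for Fos, 0.51 and 0.57 for Jun and 0.19 for Junb.

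The change of the genotype difference between the series was itself tested. Roman minus Arabic, it was 1.72 ± 0.89 (SE) for Fos, 2.34 ± 0.72 (SE) for Fosb, 1.16 ± 0.56 (SE) for Junb, 1.09 ± 0.48 (SE) and 1.24 ± 0.35 (SE) for Jun, and 0.30 ± 0.16 (SE) for Jund. Of the 6 probe sets, 3 (Fosb and both of Jun) had an unadjusted p under 0.05, against 6.61% of all probe sets, and 0 passed the adjustment (limma adjusted p of 0.676 or higher). The change without mutant cocaine replicate 1 was 0.85 for Fos, 1.82 for Fosb, 0.61 for Junb, and 0.81 and 1.05 for Jun. Without control cocaine replicate 3 it was 1.14 for Fos, 1.95 for Fosb, 0.76 for Junb, and 0.80 and 1.02 for Jun. What the numbering stands for is not given in the labels.

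**Figure D3:**
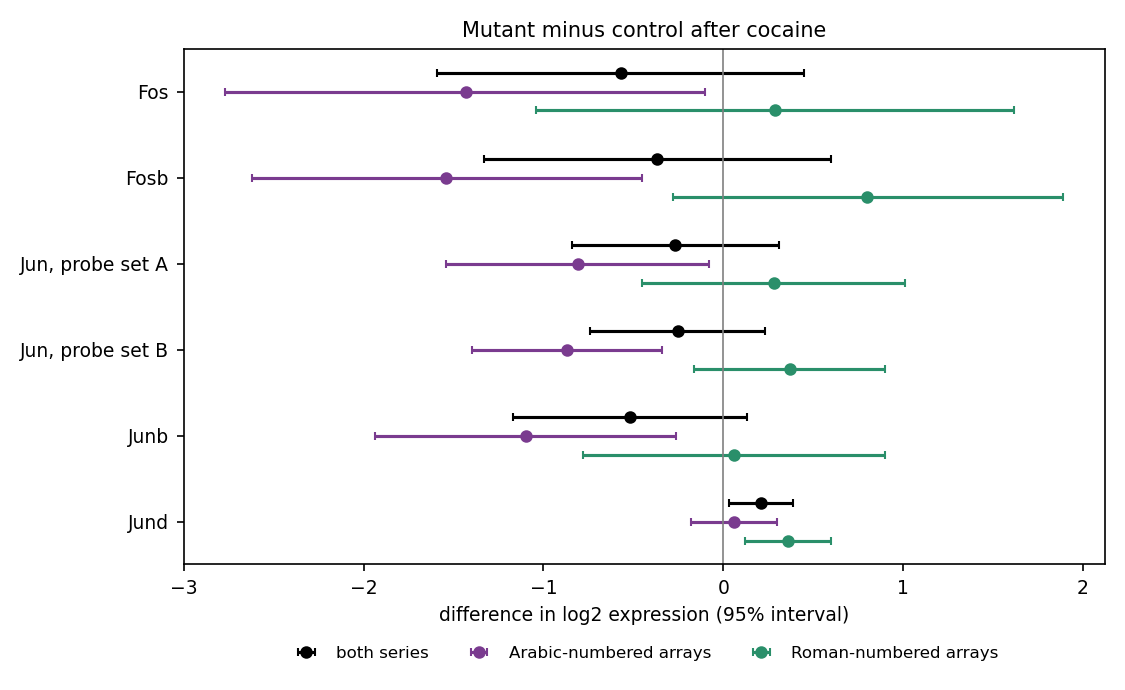
Mutant minus control difference after cocaine on the log2 scale (horizontal axis) for the 6 probe sets tested, with the limma estimate as a point and its 95% confidence interval as a bar, over both series and in the Arabic and Roman arrays. The Arabic estimates of Fos, Fosb, Jun and Junb lie between -1.54 and -0.81 and the Roman ones between 0.06 and 0.80.

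Between the series as such, over both genotypes, 0 of 6 member probe sets passed, against 6.16% of all probe sets. Roman arrays had 0.95 ± 0.48 (SE) more Fos, 0.60 ± 0.27 (SE) more Jun with probe set A, 0.55 ± 0.31 (SE) more Junb and 0.30 ± 0.45 (SE) more Fosb, and Jund differed by -0.06 ± 0.09 (SE). Jun probe set A alone had an unadjusted p under 0.05 (limma adjusted p = 0.189), against 24.4% of all probe sets. Within the controls the Roman minus Arabic difference was 0.09 ± 0.63 (SE) for Fos, -0.87 ± 0.51 (SE) for Fosb and -0.03 ± 0.39 (SE) for Junb. It was 0.05 ± 0.34 (SE) and -0.27 ± 0.25 (SE) for Jun, and -0.21 ± 0.11 (SE) for Jund. None of these passed (limma adjusted p of 0.278 or higher). In the mutants it was 1.14 ± 0.34 (SE) and 0.97 ± 0.25 (SE) for Jun, and neither passed (limma adjusted p = 0.273 and 0.199). Within the mutants the Roman arrays were higher by 1.81 ± 0.63 (SE) for Fos, 1.48 ± 0.51 (SE) for Fosb and 1.13 ± 0.39 (SE) for Junb, and none of these passed (limma adjusted p = 0.306, 0.306 and 0.311), against 0.0868% of all probe sets. With mutant cocaine replicate 1 left out they were 0.94, 0.95 and 0.58, and the series difference over both genotypes was 0.47 for Fos, -0.06 for Fosb and 0.24 for Junb. The SD over the 6 cocaine arrays of a series was 1.45 for Fos in the Arabic and 0.26 in the Roman series, 1.00 and 0.16 for Junb, 0.76 and 0.32 for Jun probe set A, and 1.25 and 0.69 for Fosb. Fosl2 and Jund went the other way, with SDs of 1.00 and 0.13 in the Arabic and 1.16 and 0.27 in the Roman series. These differences in spread were not tested.

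The same animals were low or high for most members. Mutant cocaine replicate 1 was the lowest of the 12 cocaine arrays in 6 of the 7 probe sets, and in Jund it was the next to lowest. Control cocaine replicate 1 was among the 3 lowest in 6 of the 7. Control cocaine replicate 3 was the highest in 4 of the 7, namely Fos, Fosb, Junb and Jun probe set B, and mutant cocaine replicate 5 was among the 3 highest in 6 of the 7.

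Across the 12 cocaine arrays, Fos, Fosb, Jun and Junb rose and fell together, and no pair with Fosl2 or Jund passed by Pearson's r. All 15 pairs of the 6 genes were tested, with 1 probe set per gene (for Jun probe set A), by a two-sided permutation test of Pearson's r with Benjamini-Hochberg adjustment over the pairs. Passing pairs numbered 6, and they were the 6 pairs among Fos, Fosb, Jun and Junb, with r from 0.81 to 0.99. For Fos and Junb, r was 0.99 (permutation p = 1e-05, the smallest that 100000 resamples can give, adjusted p = 0.00015) and rho was 0.96, and r was 0.96 without the 2 arrays farthest from the median of Fos. For Fos and Jun, r was 0.88 and rho 0.85 (permutation adjusted p = 0.000225 for r), and r was 0.84 without the 2 farthest arrays. Jun and Junb had r = 0.88 and rho = 0.87 (permutation adjusted p = 0.00025 for r), and r = 0.77 without 2 arrays.

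The calls of Fosb with Fos and with Junb rested on a pair of arrays. Fos and Fosb had r = 0.81 and rho = 0.76 (permutation adjusted p = 0.00252 for r). Without control cocaine replicate 3 and mutant cocaine replicate 1, r fell to 0.51 (permutation p = 0.128), so the call rests on those 2 arrays. They were left out as the farthest from the median of Fos, which also narrows the range of Fos. Leaving out only mutant cocaine replicate 1 gave r = 0.66 (permutation adjusted p = 0.0578). Fosb and Junb had r = 0.83 and rho = 0.73 (permutation adjusted p = 0.00162), and r = 0.56 (permutation p = 0.0898) without 2 arrays, so this call rests on them too. Fosb and Jun had r = 0.84 and rho = 0.78 (permutation adjusted p = 0.00162), and r = 0.69 (permutation p = 0.0277) without 2 arrays. Over all 12 arrays Jund had r from 0.22 with Junb to 0.62 with Fosl2, and none of its 5 pairs passed. With each genotype-by-series cell centred on its mean, its r was 0.54 with Fos, 0.51 with Fosb and 0.61 with Fosl2. With Jun it was then 0.58 and with Junb 0.60. These pairs did not pass either (exact permutation adjusted p of 0.0595 or higher). Fosl2 had its highest r with Fosb, at 0.64 (permutation adjusted p = 0.055), and none of its pairs passed by r. By rank, Fosl2 and Jun had rho = 0.71 and passed (permutation adjusted p = 0.0277), though most of the ranked Fosl2 levels were dim, with 2 arrays above 4. Fosb and Fosl2 passed by r without control cocaine replicate 3 (r = 0.80) or control cocaine replicate 4 (r = 0.69), and Fosl2 and Jund without mutant cocaine replicate 3 (r = 0.70) or control cocaine replicate 2 (r = 0.69), so calls of these pairs depended on single arrays. Without the 2 arrays farthest from the median of Fosb, r of Fosb and Fosl2 was 0.88 (permutation p = 0.00229). Without the 2 farthest from the median of Fosl2, its r was 0.67 with Jun (permutation p = 0.0318) and 0.43 with Jund (permutation p = 0.222).

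Within the series the relations were kept in direction, and r was above 0 for all 15 pairs in each. In the 6 Arabic arrays, which hold both genotypes, the same 6 pairs had r from 0.87 to 1.00 and all passed (exact permutation test). By rank, Fosb and Jun alone passed there (rho = 1.00, exact permutation adjusted p = 0.0417). The other pairs had rho from 0.83 to 0.94 (exact permutation adjusted p from 0.0625 to 0.125). In the 6 Roman arrays, where these genes varied less, the 6 pairs had r from 0.48 (Fosb and Jun) to 0.89 (Fos and Jun) and 0 of them passed; the smallest p that an exact test can give there is 0.00139. The pair that passed in the Roman arrays was Fosl2 and Jund, with r = 0.91 (exact permutation adjusted p = 0.0417), and mutant cocaine replicate 5 had the highest value of both. By rank this pair did not pass there (rho = 0.94, exact permutation adjusted p = 0.25). With each genotype-by-series cell of 3 arrays centred on its own mean, which removes the differences between these cells, 3 pairs passed in an exact permutation test within cells: Fos and Junb with r = 0.99 (exact permutation adjusted p = 0.0231), Fos and Jun with r = 0.79 (exact permutation adjusted p = 0.0424) and Fosb and Junb with r = 0.81 (exact permutation adjusted p = 0.0424).

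**Figure D4:**
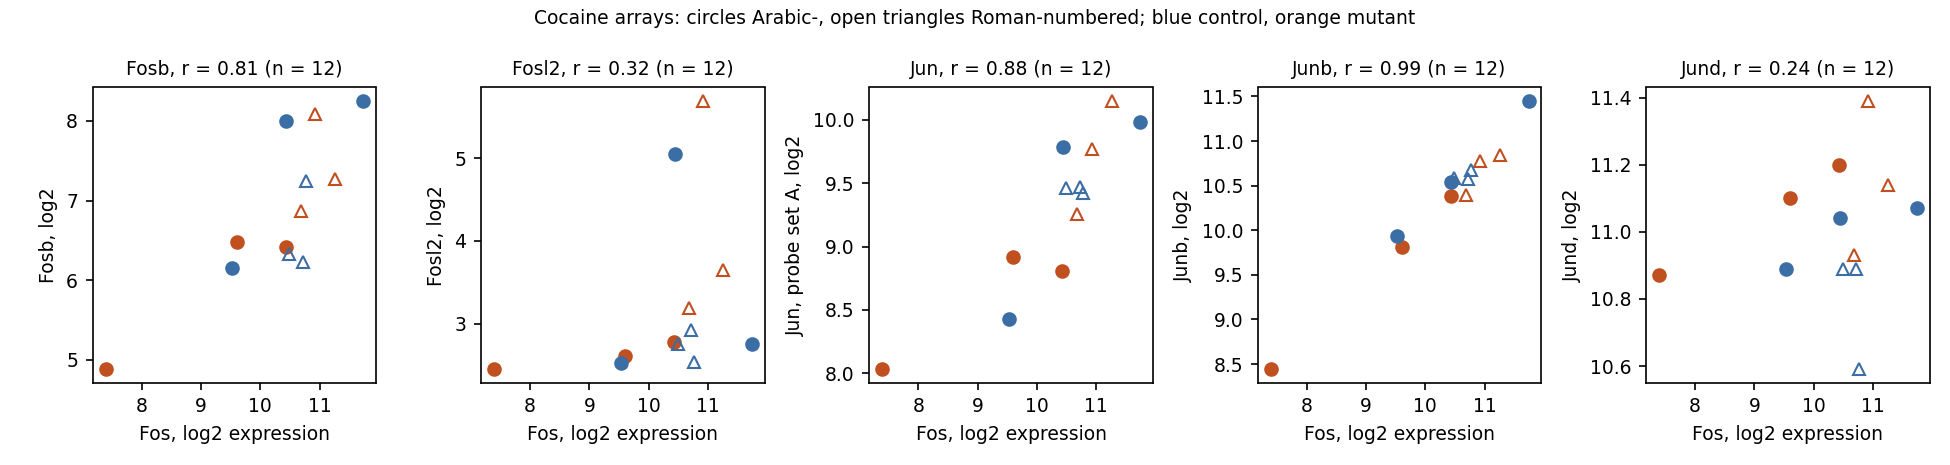
Log2 level of Fos (horizontal axis) against that of Fosb, Fosl2, Jun (probe set A), Junb and Jund (vertical axes) in the 12 cocaine arrays, 1 point per animal, coloured by genotype and with a symbol per numbering series. Junb lies close to a line against Fos (r = 0.99), and Jund had r = 0.24 with Fos over these 12 arrays.

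Genes outside the family were ranked by their likeness to each member, as Pearson's r over the 18 arrays among 7578 genes. The ranking for Fos was led by Nr4a1, an orphan nuclear receptor, Dusp1, a phosphatase of MAP kinases, and Arc, a synaptic immediate early gene, each with r = 0.98, and the median gene had r = -0.10. Junb was most like the same 3 genes, with r of 0.99 for Dusp1 and 0.98 for Nr4a1 and Arc. Fosb was most like Gpr3, a receptor active without ligand (r = 0.98), Egr4 (0.97) and Arc (0.96). Jun was most like the zinc finger factors Egr4 (0.98), Egr1 (0.97) and Egr2 (0.96). These arrays share the split into saline and cocaine, which sets much of each r. Fosl2 was most like Unc45a (0.93), Mcl1 (0.90) and Phf13 (0.87), and Jund most like Mrpl52 (0.87), Klf16 (0.86) and Capn15 (0.86). Among these 6 genes Mcl1 had means of 9.74 after saline and 10.16 after cocaine. The r of Fosl2 depend heavily on control cocaine replicate 2 and mutant cocaine replicate 5, the only 2 arrays where it was above 4.

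Genes around AP-1 were taken from 4 lists and none of them passed in the averaged cocaine comparison, in either direction, in limma. Among AP-1 partners and other leucine zipper factors, 7 of 17 were tested, with a median difference of 0.07 and 3 at an unadjusted p under 0.05. Its brightest genes were Atf2, a partner of Jun, at -0.08 ± 0.04 (SE), and Atf4, a stress response factor, at 0.29 ± 0.10 (SE). Of the kinases and factors upstream of Fos and Jun, 13 of 26 were tested, with a median of -0.03 and 2 at an unadjusted p under 0.05, and the brightest were Mapk10, a Jun kinase, at 0.08 ± 0.07 (SE) and Map2k1, the kinase of ERK, at -0.08 ± 0.06 (SE). Genes for the turnover of Fos and Jun RNA and protein had 8 of 15 tested, a median of 0.01 and 0 at an unadjusted p under 0.05, and included Hnrnpd, an RNA-binding protein of AU-rich elements, at 0.02 ± 0.06 (SE) and Fbxw7, which marks Jun for degradation, at 0.06 ± 0.09 (SE). Among genes described as AP-1 targets 13 of 23 were tested, with a median of 0.03 and 1 at an unadjusted p under 0.05. That gene, named after its value was seen, was Vegfa, a vascular growth factor, at 0.58 ± 0.13 (SE) (limma adjusted p = 0.128), while the brightest, the metallothionein Mt1 and the glutamate receptor subunit Gria2, were at 0.04 ± 0.08 (SE) and -0.04 ± 0.07 (SE). The median over all probe sets tested was 0.00, and 5.09% had an unadjusted p under 0.05.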

How the data were processed

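Total RNA of the striatum of each animal was labelled and hybridised to Affymetrix arrays. The deposited table holds log2 expression values for 22690 probe sets in 18 arrays, made by the authors with GCRMA in R 2.4.1, per the submitters' processing notes, with settings not given in the sources used here. GCRMA corrects background from probe sequence and equalises arrays, which removes shifts of whole arrays. Values ran from 1.07 to 15.4, and the number of arrays limits the precision.

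The 64 control probe sets were left out, and probe sets with log2 above 4 in at least 3 arrays were tested (12674, of which 11749 carried 1 symbol). For each probe set, limma 3.58.1 (R 4.3.3) fitted the 4 groups and the numbering series (moderated two-sided tests with an intensity trend, 13 residual degrees of freedom), and a model with 6 cells gave the differences within series. P-values were adjusted by Benjamini-Hochberg over all probe sets tested, with a threshold of 0.05. Correlations used permutation tests in Python 3.11.15 with NumPy 2.4.6. The code was tested on simulated data.

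The members, lists and tests were chosen with earlier results of these data known. The text names all members, Camk4, the 2 brightest genes of a list without calls, and the 3 genes most like each member. Alternatives were other filters, no series term, blocks by replicate or animal number, array weights, no moderation, array centring, an actin term, each series alone and leaving out each array. Deviations from the group means, with the series not removed, were compared in 21 pairs of arrays with the same replicate number. Their r ran from -0.499 to 0.634, and 10 were over 0.1. Of the 6 mutant and control cocaine pairs 5 were over 0.1 and the pair of replicate 5 was at -0.499. As not every pair was over 0.1, replicate numbers were not taken to pair animals. The animal numbers in the titles were not checked in this way. Taken consecutively, they form blocks with 1 animal of each group in the Arabic series, and with 1 control and 1 mutant in the Roman series. These blocks entered only as an alternative to the series term.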

Additional observations from a re-analysis of the deposited data

Results flagged for a closer look

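In 4 of the 14 sets of 6 cocaine arrays (7 probe sets in each genotype), 1 array stood far from the other 5 by Dixon's criterion, which chance alone meets in about 1 set in 20. Fosl2 in control cocaine replicate 2 was at 5.05, and the nearest other control was at 2.93. Fosl2 in mutant cocaine replicate 5 was at 5.69, and the nearest other mutant was at 3.65. Jun probe set A in control cocaine replicate 1 was at 8.43, below the nearest other control at 9.42. Jund in control cocaine replicate 4 was at 10.59, below the nearest other control at 10.89. Mutant cocaine replicate 5 is also the array with the actin 3' to 5' difference of 3.59, and mutant cocaine replicate 1, the lowest in 6 of 7 probe sets, met the criterion in none.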

How the results depend on the processing

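Counts are of the 6 member probe sets past the threshold. For cocaine against saline averaged over genotypes the count of 3 became 5 with no series term, with array weights and in the Arabic arrays alone. It ran from 3 to 5 when each array was left out, and Jun made up the difference. All probe sets were called at a rate of 0.221% in the main fit and 3.39% in the Arabic arrays alone. Without mutant cocaine replicate 5 the rate was 2.86%, and without mutant cocaine replicate 1 it was 0.339%. Where no such rate is given in this section, a change in the member count cannot be told from a general change in calls. In control mice the count of 2 became 0 with blocks of consecutive animal numbers and without moderation, and 4 in the Arabic arrays alone (where 0.339% of all probe sets were called), and ran from 0 to 3 when each array was left out. In mutants the count of 2 became 1 with no filter, and 0 with consecutive blocks, without moderation and in the Arabic arrays alone. In those Arabic arrays 0.0237% of all probe sets were called. When each array was left out the count in mutants ran from 0 to 3. The counts for mutant against control after saline and after cocaine, the interaction, the numbering series and the within-series differences were 0 under every alternative run. The count of 6 correlated pairs became 1 in the Roman arrays, 3 with cells centred and 8 with each array centred on its median, which added Fosb and Fosl2 (r = 0.66) and Fosl2 and Jund (r = 0.65), and ran from 5 to 7 when each array was left out. Replicate numbers were not taken to pair the animals; with the replicate block the count in mutants became 1. The causes were not tested. Some values that never passed changed sign: after cocaine in the Roman arrays alone the genotype difference was 0.29 for Fos, 0.80 for Fosb, 0.28 and 0.37 for Jun and 0.06 for Junb; in the Arabic arrays alone the interaction was -0.32 for both Fos and Jun probe set A; with an actin term Jund differed by -0.01 between genotypes after saline and by 0.01 between series. When each array was left out, the Fosb interaction ran from -0.42 to 0.22, its series difference from -0.06 to 0.61, the saline genotype difference of Jun probe set B from -0.17 to 0.02 and of Jund from -0.01 to 0.09, and the Jund series difference from -0.13 to 0.00. Dim signal limits Fosl2 in all arrays but 2 and Fosb after saline, and 3 saline arrays per genotype limit every cocaine comparison.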

Other observations

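With each genotype-by-series cell of the cocaine arrays centred on its mean, the genes most like each member over the 12 arrays were partly others than over all 18. Fos was most like Gadd45b, a stress-response gene (r = 0.97), Nr4a1 (0.97) and Gadd45g (0.95), and Junb like Nr4a1 (0.98), Gadd45b (0.98) and Gadd45g (0.97). Fosb was most like Egr2 (0.95), the collagen gene Col6a1 (0.95) and Egr4 (0.94). Jun was most like Egr4 (0.95), Pou6f1 (0.95) and Sertad1 (0.93). Fosl2 was most like Atf5 (0.96), Akap12 (0.96) and Med29 (0.95), and Jund like Pgp (0.94), Mras (0.94) and Krtcap2 (0.93). Here too the r of Fosl2 depend heavily on the only 2 arrays where it was above 4. Col6a1 had means of 6.86 after saline and 6.97 after cocaine, and Pou6f1 of 8.76 and 8.74, so these 2 followed Fosb and Jun among the cocaine animals without a difference of note between the treatments. These r are the highest of 7578 genes over 12 arrays and carry no test.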
